A study of Mus musculus with 18 samples.

Results

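Wnt signalling genes were followed in sorted cells of the newborn mouse inner ear, where they were chosen by symbol and not by level. Every Wnt, Fzd, Sfrp, Dkk or Rspo gene with a digit after the stem was taken, together with Axin2, Lef1, Tcf7, Tcf7l1, Tcf7l2, Lrp5, Lrp6, Wif1, Frzb, Znrf3, Nkd1, Porcn and Ctnnb1. The annotation of the array listed 54 such genes on 100 probes, out of 19057 genes with a single symbol on 45281 probes. Tcf7 was the only named gene for which the annotation listed no probe. Fzd10os, which RefSeq describes as a long non-coding RNA from the strand opposite Fzd10, met the rule by its letters and was kept apart from the receptors. A gene was tested when at least 1 of its probes was detected (detection p-value under 0.01) on 2 or more arrays, and this held for 39 of the 54 genes and for 12002 genes of the whole array.

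The cells came from cochlear and vestibular tissue of Atoh1/nGFP mice on C57BL/6, at postnatal day 1, in which a nuclear green fluorescent protein under Atoh1 control marks hair cells. All groups carried this transgene and none was treated. Flow sorting with an antibody to CD326, the epithelial adhesion protein Epcam, gave GFP+ CD326+ hair cells (HC), CD326+ cells without GFP (epithelial non-hair cells, ENHC, named ENSCs in the labels) and cells negative for both (non-epithelial cells, NEC). Each of the 6 groups, 3 cell types in each of the 2 organs, had 3 Illumina BeadChip arrays, each from cells pooled over several mice. ENHC therefore holds sensory and non-sensory epithelium together, and NEC holds all cells without CD326. As these were bulk samples, fewer cells of a type and less RNA per cell cannot be told apart.

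Wnt proteins are secreted lipid-modified ligands that bind a Frizzled receptor, with Lrp5 or Lrp6 as co-receptor in the canonical branch. Binding stops the destruction of β-catenin, the product of Ctnnb1, which then acts with TCF/LEF factors on target genes, among them the feedback inhibitors Axin2, Nkd1 and Znrf3. R-spondins raise the receptor level by removing the ubiquitin ligases Znrf3 and Rnf43, whereas Sfrp proteins, Frzb and Wif1 bind the ligands and Dkk proteins block the co-receptors. In the neonatal cochlea canonical Wnt signals are known to drive supporting cells to divide and form hair cells, and the non-canonical ligand Wnt5a takes part in the lengthening and planar polarity of the sensory epithelium.

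The 18 arrays detected 16668 to 19564 probes each, and every array resembled most closely another array of its own group. All 8 hair cell markers were detected on every HC array, whereas 1 of 8 was detected on all arrays of each ENHC and NEC group. All 7 epithelial markers were detected on every HC and ENHC array, with a summed linear level of 5172 to 7505 in HC and 10380 to 16830 in ENHC. Epcam, the sorting antigen, was detected on no NEC array, but 2 of the 7 were on all cochlear and 3 on all vestibular NEC arrays. Their sum was 2848 to 4819 in cochlear and 2401 to 2853 in vestibular NEC. Cdh1 stood at 11.68 and 11.15 in cochlear and vestibular NEC, against 11.87 and 10.87 in HC. The 10 mesenchyme markers summed to 10660 to 15420 in NEC, 1085 to 1802 in ENHC and 710.2 to 1076 in HC. The 6 supporting and prosensory cell markers summed to 2138 to 3116 in HC and 1057 to 2683 in ENHC. By the test described below, 3 of these 6 were higher in HC than in ENHC and 0 lower, so ENHC were not enriched for them over HC. Levels below are log2 of background-corrected, quantile-normalized probe signal, where the lowest level of any detected probe on an array lay between 5.10 and 5.52. Levels are compared between arrays for the same gene and never between genes, since probes differ in brightness.

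Of the 54 genes, 13 were detected on no array. These were the ligands Wnt1, Wnt2, Wnt8b, Wnt9a, Wnt10a, Wnt11 and Wnt16, the receptors Fzd8 and Fzd9, the antagonists Dkk1, Dkk4 and Sfrp4, and the R-spondin Rspo4. Wnt6 and Wnt8a were detected on 1 array each and were not tested either. By role, 10 of 19 Wnt ligands, 3 of 4 R-spondins, 10 of 12 receptors and co-receptors, 7 of 10 antagonists, all 3 TCF/LEF factors with a probe, and all 5 of Axin2, Ctnnb1, Nkd1, Porcn and Znrf3 were tested, with Fzd10os as the last. Detection on all arrays of a group ranged from 21 genes in each HC group to 30 in vestibular ENHC, with 28 in cochlear ENHC, 25 in cochlear NEC and 26 in vestibular NEC. The 39 tested genes included 4 that passed through 1 group alone (Wnt3, Sfrp5 and Wnt10b in vestibular ENHC, and Wnt2b in vestibular NEC) and a further 3 that were detected in a single cell type (Dkk2 in ENHC, Fzd10os and Wnt5b in NEC). For these genes a difference followed from the way they entered the test. Another 3 were detected in HC and ENHC but not in NEC (Wnt7a, Wnt7b and Wnt9b), and 3 in ENHC and NEC but not in HC (Fzd2, Rspo2 and Wnt3a). Their differences from the cell type without detection were tied to their entry in the same way.

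**Figure D1:**
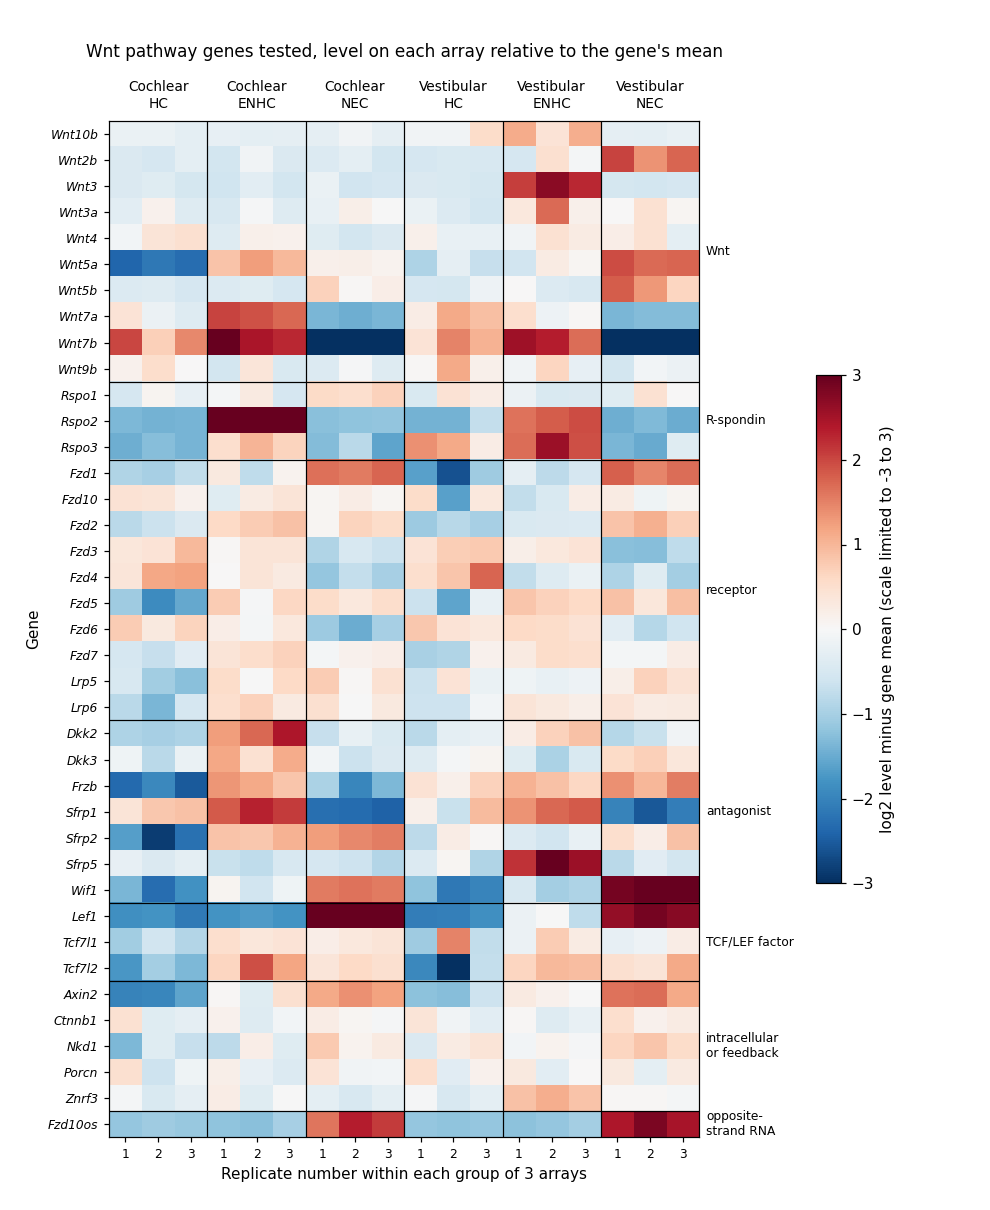
Log2 level of the 39 tested Wnt genes (rows, grouped by role) on each of the 18 arrays (columns, 3 replicates in each of 6 groups), as the difference from the gene's mean over all arrays, with the colour scale limited to -3 to 3. Lef1, Wif1, Fzd1 and Fzd10os were highest in NEC, Wnt7b and Sfrp1 in epithelial cells, and Wnt3 and Sfrp5 in vestibular ENHC.

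The first question was how the 3 cell types differed, taken over both organs. HC differed from ENHC in 25 of the 39 genes, with 1 higher in HC and 24 lower (adjusted p under 0.05, limma with adjustment over all 12002 genes tested). Of all genes tested, 47.3% differed in this comparison, 22.2% being higher and 25.1% lower in HC. The median log2 difference was -0.82 over the Wnt genes and -0.03 over all genes. HC differed from NEC in 25 genes (8 higher in HC, 17 lower), against 57.5% of all genes (28.3% higher, 29.3% lower). ENHC differed from NEC in 26 genes (14 higher in ENHC, 12 lower), against 32.5% of all genes (16.1% higher, 16.4% lower). Over the 6 groups together, 47 of the 62 kept probes of the Wnt genes differed (moderated F test), against 57.3% of all kept probes. Porcn and Wnt4 differed in none of the 8 comparisons made in all, although with array weights Wnt4 passed in HC minus NEC (0.38, limma adjusted p = 0.0364). Ctnnb1 differed in none either unless arrays were blocked by replicate number, and Fzd10 in none by the probe that stood for it, although its other kept probe differed in several. By role, 5 of 10 ligands, 2 of 3 R-spondins, 6 of 10 receptors, 6 of 7 antagonists, 3 of 3 TCF/LEF factors and 2 of 5 intracellular genes were lower in HC than in ENHC. These include Wnt3, Wnt10b, Sfrp5 and Dkk2, which were tested through their detection in ENHC alone, and Rspo2, whose probe used was detected in ENHC alone.

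**Figure D2:**
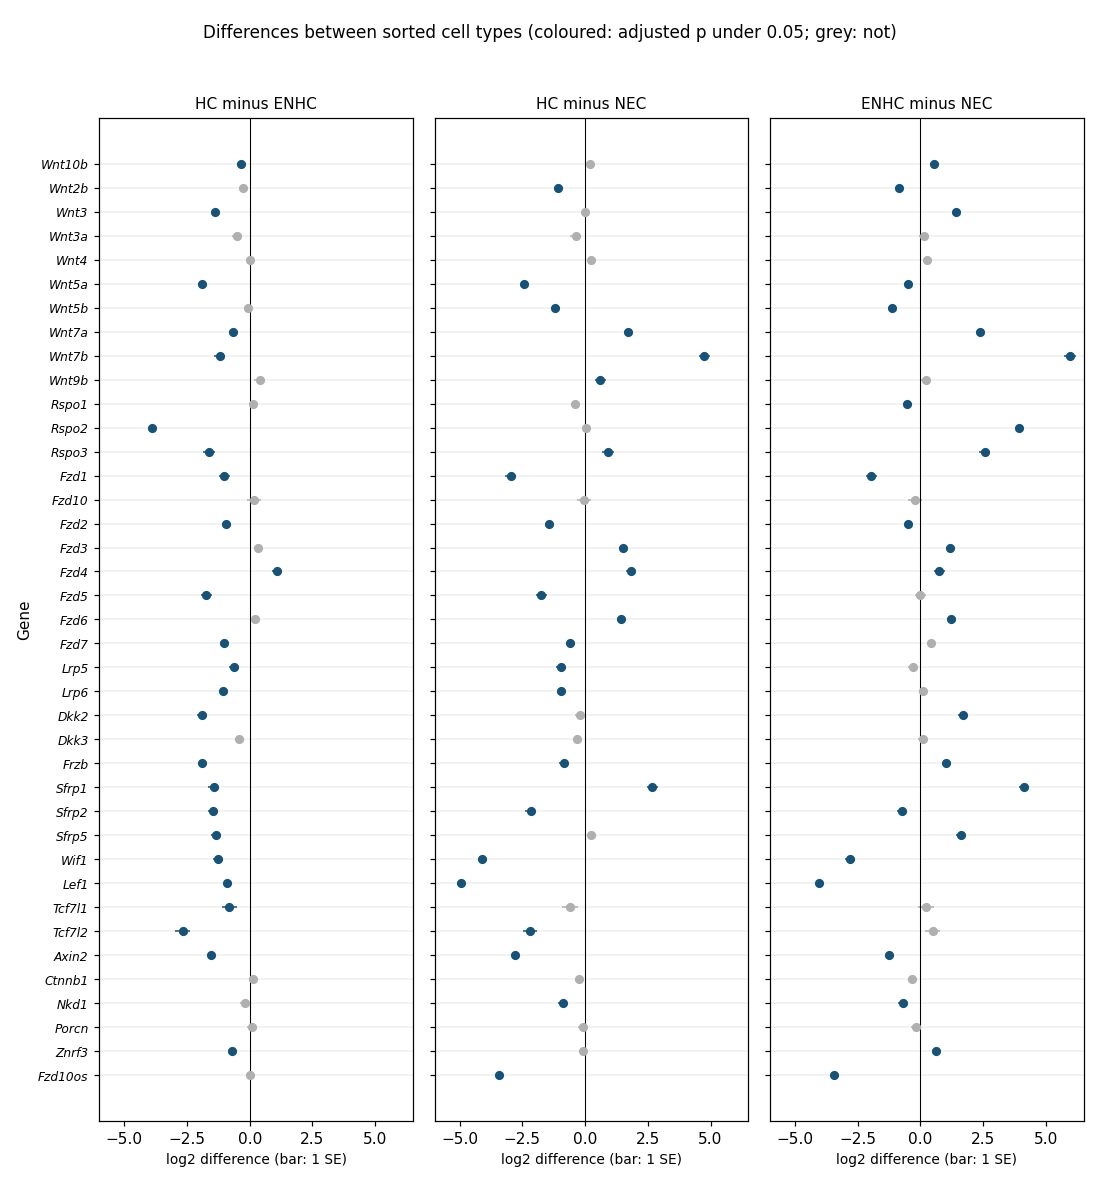
Log2 differences between cell types over both organs for the 39 tested Wnt genes, in 3 panels (HC minus ENHC, HC minus NEC, ENHC minus NEC). Points are fitted differences of 6 against 6 arrays, bars are 1 SE, and coloured points have an adjusted p under 0.05. Where a cell type lay in the background, the fitted value is no measured size. In the HC minus ENHC panel 24 of the 25 coloured points lie left of 0, Fzd4 being the exception.

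Among the ligands, Wnt7b and Wnt7a were detected in the epithelial sorts alone and entered the test through them, so that a difference from NEC followed from that entry. The log2 level of Wnt7b ran from 8.54 to 10.12 in HC, from 9.81 to 11.16 in ENHC and from 4.35 to 4.77 in NEC. Wnt7b was detected on all 12 HC and ENHC arrays and on none of the 6 NEC arrays. Its level was therefore at least 15.9-fold higher in HC than in NEC and at least 36.6-fold higher in ENHC than in NEC, and lower in HC than in ENHC (-1.20 ± 0.23 SE, adjusted p = 0.000235).

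Wnt7a read 6.12, 5.54 and 5.33 in cochlear HC, 7.73, 7.62 and 7.43 in cochlear ENHC and 4.34, 4.25 and 4.35 in cochlear NEC. Vestibular Wnt7a read 5.93, 6.83 and 6.60 in HC, 6.20, 5.56 and 5.75 in ENHC and 4.34, 4.41 and 4.40 in NEC. Wnt7a, a ligand of the same subfamily as Wnt7b, was likewise on all HC and ENHC arrays and no NEC array. It was at least 1.67-fold higher in HC and at least 2.63-fold higher in ENHC than in NEC. The difference between HC and ENHC turned with the organ. In the cochlea all 3 HC arrays lay below all 3 ENHC arrays, whereas in the vestibular organs 2 of 3 HC arrays lay above every ENHC array, and the log2 difference between the organs was -2.55 ± 0.34 SE, adjusted p = 4.39e-05.

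Wnt5a was the gene that differed in all 8 comparisons. Log2 levels of Wnt5a were 6.36, 6.61 and 6.46 in cochlear HC, 9.61, 9.998 and 9.72 in ENHC and 8.89, 8.91 and 8.85 in NEC. Vestibular levels of Wnt5a were 7.82, 8.47 and 8.05 in HC, 8.17, 8.99 and 8.80 in ENHC and 10.70, 10.43 and 10.50 in NEC. The lowest levels were those of cochlear HC and the highest those of vestibular NEC. Over both organs Wnt5a was lower in HC than in ENHC (-1.92 ± 0.15 SE, adjusted p = 4.67e-09) and than in NEC (-2.42 ± 0.15 SE, adjusted p = 9.27e-11), and lower in ENHC than in NEC by a smaller step (-0.50 ± 0.15 SE, adjusted p = 0.0147). The organs did not share this order. In the cochlea ENHC lay above NEC on every array, whereas in the vestibular organs every NEC array lay above every ENHC array. Vestibular HC and ENHC overlapped, with means of 8.11 and 8.65, against 6.48 and 9.77 in the cochlea. The gap between HC and ENHC was thus wider in the cochlea (difference between the organs -2.76 ± 0.30 SE, adjusted p = 6.2e-06).

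Wnt3, which encodes a canonical ligand, and Wnt2b were each confined to a single group as far as detection went. Wnt3 read 4.49, 4.55 and 4.40 in cochlear HC, 4.33, 4.59 and 4.37 in cochlear ENHC and 4.73, 4.35 and 4.41 in cochlear NEC. Vestibular Wnt3 read 4.48, 4.46 and 4.38 in HC, 7.003, 7.63 and 7.17 in ENHC and 4.40, 4.36 and 4.42 in NEC. The 3 vestibular ENHC arrays stood clear of the other 15, none of which detected the gene. Vestibular ENHC was thus at least 3.45-fold higher than cochlear ENHC. Pooled over the organs, with 3 of 6 ENHC arrays detecting Wnt3, the same calculation gave 1.5-fold over HC and 1.44-fold over NEC. These pooled folds came from the vestibular arrays alone, since cochlear ENHC lay in the background.

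Log2 levels of Wnt2b were 4.53, 4.46 and 4.68 in cochlear HC, 4.43, 4.87 and 4.55 in ENHC and 4.55, 4.69 and 4.43 in NEC. In the vestibular organs Wnt2b stood at 4.47, 4.51 and 4.48 in HC, 4.47, 5.45 and 4.92 in ENHC and 6.997, 6.32 and 6.73 in NEC. Detection of Wnt2b was limited to the 3 vestibular NEC arrays, which were at least 2.57-fold higher than cochlear NEC. Pooled over the organs, with 3 of 6 NEC arrays detecting Wnt2b, the same calculation gave 1.28-fold for NEC over HC and 1.14-fold over ENHC. These pooled folds came from the vestibular arrays alone, since cochlear NEC lay in the background.

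The remaining ligands were near the limit of detection or did not differ. Wnt5b, a relative of Wnt5a, was detected on 4 of 6 NEC arrays and on no other array, and was at least 1.34-fold higher in NEC than in HC and at least 1.2-fold higher than in ENHC. Wnt9b was detected on 3 HC arrays, 1 ENHC array and no NEC array and passed as higher in HC than in NEC (adjusted p = 0.0229), with no fold above 1 as a bound since NEC lay in the background. The Wnt9b call ended when cochlear HC replicate 2, vestibular HC replicate 2 or vestibular NEC replicate 1 was left out (adjusted p up to 0.0716). Wnt10b was detected on 2 of 3 vestibular ENHC arrays and nowhere else. The test of HC against ENHC passed (adjusted p = 0.0452), but HC and cochlear ENHC lay in the background, so the difference has no measured size, and the call was lost when any 1 of 14 arrays was left out, with adjusted p up to 0.108. Wnt3a was detected on 1 vestibular ENHC and 1 vestibular NEC array and did not pass the test between cell types (HC minus ENHC adjusted p = 0.0561), although it passed without cochlear HC replicate 2 or vestibular ENHC replicate 1 or 3, with adjusted p down to 0.0157. Wnt4, detected on all 18 arrays, ranged from 5.64 to 6.69 with overlapping cell types, and its F test among the 6 groups gave an adjusted p of 0.091.

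**Figure D3:**
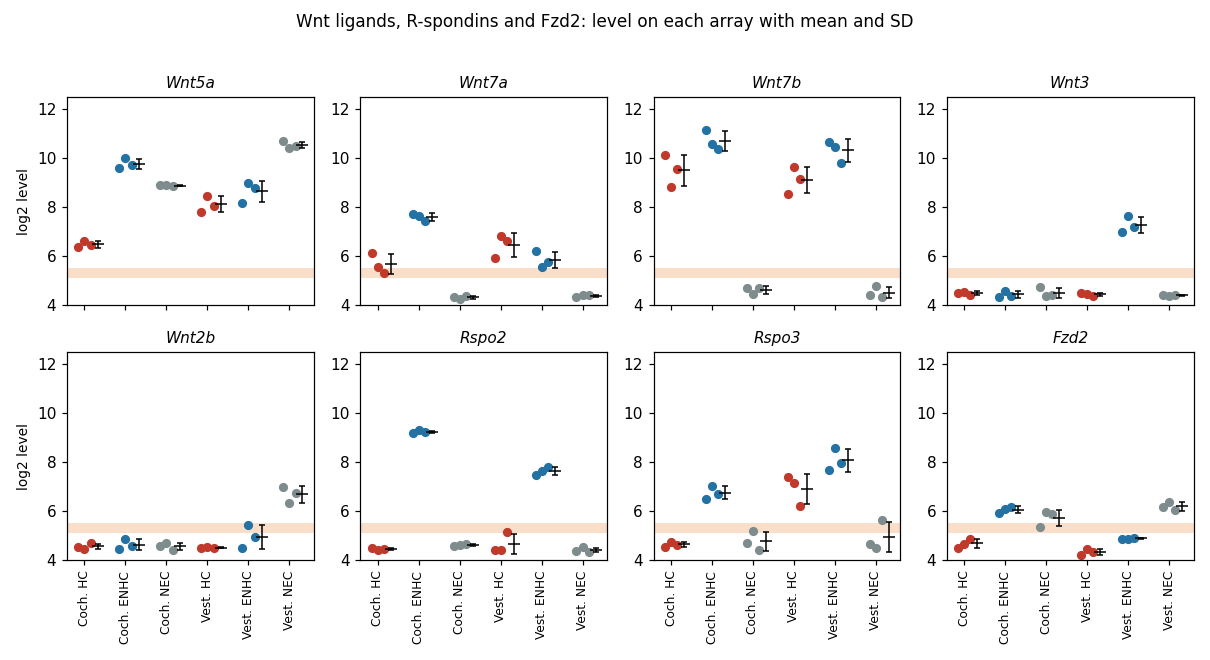
Log2 level of 5 Wnt ligands, 2 R-spondins and Fzd2 on each of the 18 arrays (points; red HC, blue ENHC, grey NEC), with the mean and SD of each group of 3 in black. The shaded band spans 5.10 to 5.52, the lowest levels of a detected probe on the 18 arrays. Wnt3 rose out of the band in vestibular ENHC alone and Wnt2b in vestibular NEC alone.

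Of the R-spondins, Rspo2 and Rspo3 were highest in ENHC and Rspo1 was not. Rspo2 read 4.49, 4.42 and 4.43 in cochlear HC, 9.20, 9.29 and 9.24 in cochlear ENHC and 4.57, 4.61 and 4.65 in cochlear NEC. Vestibular Rspo2 read 4.41, 4.41 and 5.12 in HC, 7.45, 7.65 and 7.80 in ENHC and 4.38, 4.51 and 4.34 in NEC. Rspo2 was detected on all 6 ENHC arrays, on no HC array and on 1 NEC array, and the 6 ENHC values lay above all others. HC were at least 9.01-fold lower than ENHC, and ENHC were at least 8.7-fold higher than NEC, where the probe used was on no array above background and the 1 detection was that of another probe. Cochlear ENHC lay above vestibular ENHC on every array (1.61 ± 0.18 SE, adjusted p = 5.37e-06).

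Log2 levels of Rspo3 were 4.54, 4.73 and 4.62 in cochlear HC, 6.51, 7.03 and 6.69 in ENHC and 4.71, 5.19 and 4.42 in NEC. Vestibular levels of Rspo3 were 7.38, 7.14 and 6.23 in HC, 7.69, 8.59 and 7.95 in ENHC and 4.64, 4.500 and 5.64 in NEC. Rspo3 had the opposite organ difference, with higher levels in the vestibular organs. Vestibular HC were on all 3 arrays above detection and cochlear HC on none, so that vestibular HC were at least 3.15-fold higher than cochlear HC. A second kept probe of Rspo3 was detected on the 3 vestibular ENHC arrays and on no other. It read 4.47 to 4.61 in HC, in the background, and so could not show a difference between the HC groups (-0.08 ± 0.21 SE, adjusted p = 0.893). In ENHC the organ difference was -1.33 ± 0.33 SE, adjusted p = 0.0103, and it was lost without cochlear ENHC replicate 1 or vestibular ENHC replicate 2 (adjusted p up to 0.0738). Over both organs Rspo3 was highest in ENHC, above HC (HC minus ENHC -1.63 ± 0.23 SE, adjusted p = 9.91e-06) and above NEC (2.56 ± 0.23 SE, adjusted p = 4.3e-08). Pooled HC exceeded pooled NEC (0.92 ± 0.23 SE, adjusted p = 0.00224), but through the vestibular arrays. Mean levels were 6.91 in vestibular HC and 4.93 in vestibular NEC, but 4.63 in cochlear HC and 4.77 in cochlear NEC. As the probe was above background on no cochlear HC or NEC array, these pooled values are no measured sizes.

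Rspo1 was detected on 12 of the 18 arrays and was lower in ENHC than in NEC (-0.53 ± 0.18 SE, adjusted p = 0.0321). Leaving out any 1 of 8 ENHC or NEC arrays ended that call, with adjusted p up to 0.0988.

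The tested Frizzled receptors were either lower in HC than in both other cell types or higher in both epithelial sorts than in NEC. The exception was Fzd10, whose probes disagreed. Fzd5 was the receptor with the widest gap between HC and ENHC (-1.73 ± 0.21 SE, adjusted p = 1.72e-06), with HC from 5.68 to 7.32 and ENHC from 7.51 to 8.40, and it did not overlap NEC either (HC minus NEC -1.74 ± 0.21 SE, adjusted p = 1.08e-06). A second kept probe of Fzd5 stayed between 4.37 and 5.54 on all arrays, close to the limit of detection. Fzd7 had a smaller difference without overlap between HC and ENHC (-1.04 ± 0.17 SE, adjusted p = 4.01e-05). Fzd7 in ENHC minus NEC was 0.42 ± 0.17 SE, adjusted p = 0.0588, and passed with arrays blocked by replicate number (adjusted p = 0.0182). Fzd1 was highest in NEC, where its levels from 9.08 to 9.41 lay above every HC and ENHC array. It was lower in HC (-2.97 ± 0.22 SE, adjusted p = 1.11e-09) and in ENHC (-1.97 ± 0.22 SE, adjusted p = 7.08e-07), and HC lay below ENHC with overlapping arrays (-1.01 ± 0.22 SE, adjusted p = 0.000854).

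Fzd2 read 4.49, 4.66 and 4.87 in cochlear HC, 5.91, 6.08 and 6.18 in cochlear ENHC and 5.36, 5.98 and 5.86 in cochlear NEC. Vestibular Fzd2 read 4.21, 4.47 and 4.31 in HC, 4.86, 4.87 and 4.91 in ENHC and 6.16, 6.37 and 6.03 in NEC. Fzd2 was detected in cochlear ENHC and in both NEC groups and on none of the 6 HC and 3 vestibular ENHC arrays. NEC were at least 1.61-fold higher than HC, and cochlear ENHC were at least 1.61-fold higher than vestibular ENHC.

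Fzd4 was the single gene of the 39 higher in HC than in ENHC (1.08 ± 0.21 SE, adjusted p = 0.000286), although others joined it under further settings. Fzd3 did so with median scaling, without background correction, with the deposited values, with a replicate block and with array weights (adjusted p from 0.0178 to 0.0422). Wnt9b did so with the block (0.015) and without cochlear ENHC replicate 2 (0.0485). Fzd4 levels were from 6.53 to 7.91 in HC, from 5.42 to 6.55 in ENHC and from 4.996 to 5.79 in NEC, where 3 of 6 arrays detected it. HC exceeded NEC without overlap (1.84 ± 0.21 SE, adjusted p = 4.3e-07). Fzd4 is also the receptor of norrin, a ligand outside the Wnt family.

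Fzd3 and Fzd6, which act in planar cell polarity and in the orientation of hair bundles, were higher in both epithelial sorts than in NEC, with no overlap of arrays. Fzd3 exceeded NEC in HC (1.50 ± 0.15 SE, adjusted p = 6.08e-08) and in ENHC (1.17 ± 0.15 SE, adjusted p = 3.12e-06). Fzd6 did so in HC (1.43 ± 0.14 SE, adjusted p = 7.96e-08) and in ENHC (1.22 ± 0.14 SE, adjusted p = 1.38e-06). Between HC and ENHC the log2 difference was 0.32 for Fzd3 (adjusted p = 0.0805) and 0.21 for Fzd6 (adjusted p = 0.252), neither of which passed. The 2 kept probes of Fzd10 disagreed. The brighter one, which stood for the gene, was detected on all 18 arrays, ranged from 6.03 to 8.20 and differed in no comparison, the 6.03 being vestibular HC replicate 2 alone. Without that array HC minus ENHC passed, with an adjusted p of 0.0306. The other probe was detected on 8 arrays and stood at 9.18 to 9.995 in NEC, 4.32 to 4.88 in HC and 4.25 to 5.75 in ENHC. With the mean of both probes, Fzd10 passed in HC minus NEC (-2.47, adjusted p = 3.6e-10) and in ENHC minus NEC (-2.31, adjusted p = 2e-09). Which of the probes reads the Fzd10 transcript was not tested.

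Of the co-receptors, Lrp6 was lower in HC than in ENHC (-1.05 ± 0.16 SE, adjusted p = 1.59e-05) and than in NEC (-0.94 ± 0.16 SE, adjusted p = 4.07e-05), with no overlap in either case. These values are of the brighter of its 2 kept probes. The other Lrp6 probe overlapped between the cell types, at 5.48 to 6.28 in HC, 5.41 to 6.49 in ENHC and 4.65 to 6.20 in NEC. Lrp5 was detected on 1 of 3 cochlear HC arrays and on all others, and was lower in HC than in ENHC (-0.64 ± 0.19 SE, adjusted p = 0.0106) and than in NEC (-0.96 ± 0.19 SE, adjusted p = 0.000333), with overlapping arrays. The Lrp5 call against ENHC was lost under median scaling (adjusted p = 0.0694). The gap was a cochlear one, since the mean level was 5.43 in cochlear HC and 6.74 in cochlear ENHC but 6.22 in vestibular HC and 6.19 in vestibular ENHC.

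Among the antagonists, the secreted Frizzled-related protein Sfrp1 had the widest epithelial difference. In HC its levels ran from 8.22 to 9.83, in ENHC from 10.24 to 11.19 and in NEC from 6.34 to 6.88, 3 ranges that did not overlap. ENHC exceeded NEC (4.13 ± 0.21 SE, adjusted p = 1.08e-11), HC exceeded NEC (2.68 ± 0.21 SE, adjusted p = 2.52e-09), and HC lay below ENHC (-1.45 ± 0.21 SE, adjusted p = 1.27e-05).

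Log2 levels of Sfrp2 were 7.38, 6.17 and 6.79 in cochlear HC, 9.88, 9.83 and 10.06 in ENHC and 10.28, 10.47 and 10.57 in NEC. In the vestibular organs Sfrp2 stood at 8.24, 9.25 and 9.07 in HC, 8.62, 8.45 and 8.80 in ENHC and 9.53, 9.22 and 9.91 in NEC. For Sfrp2 the order of the cell types differed between the organs. Cochlear HC lay below all other arrays, whereas 2 of 3 vestibular HC arrays lay above all 3 vestibular ENHC arrays. The gap between HC and ENHC differed between the organs by -3.37 ± 0.40 SE, adjusted p = 1.34e-05. In both organs every NEC array lay above every HC array except vestibular NEC replicate 2, which was just under vestibular HC replicate 2, and over both organs HC were lower than NEC (-2.18 ± 0.20 SE, adjusted p = 2.51e-08) and than ENHC (-1.45 ± 0.20 SE, adjusted p = 7.32e-06). ENHC were lower than NEC by a smaller difference (-0.72 ± 0.20 SE, adjusted p = 0.00855).

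Frzb read 7.16, 7.55 and 6.98 in cochlear HC, 10.81, 10.62 and 10.33 in cochlear ENHC and 8.53, 7.53 and 8.15 in cochlear NEC. Vestibular Frzb read 9.92, 9.65 and 10.17 in HC, 10.53, 10.37 and 10.10 in ENHC and 10.86, 10.49 and 11.03 in NEC. Frzb, another secreted Frizzled-related protein, was low in cochlear HC and cochlear NEC and high in the remaining 4 groups. Cochlear HC lay below vestibular HC (-2.68 ± 0.25 SE, adjusted p = 3.98e-07) and cochlear NEC below vestibular NEC (-2.72 ± 0.25 SE, adjusted p = 8.72e-07). ENHC of the organs overlapped (0.25 ± 0.25 SE, adjusted p = 0.644). The pooled difference between HC and ENHC (-1.89 ± 0.18 SE, adjusted p = 5.09e-08) lay mainly in the cochlear arrays, and the test of the organ difference gave -2.94 ± 0.35 SE, adjusted p = 1.4e-05.

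Log2 levels of Wif1 were 5.98, 5.07 and 5.54 in cochlear HC, 7.42, 6.77 and 7.23 in ENHC and 8.90, 8.98 and 8.90 in NEC. Vestibular levels of Wif1 were 6.13, 5.21 and 5.37 in HC, 6.86, 6.32 and 6.41 in ENHC and 10.23, 10.57 and 10.36 in NEC. Wif1, an inhibitor that binds Wnt ligands directly, fell in steps from NEC to ENHC to HC in both organs. HC were lower than NEC (-4.11 ± 0.19 SE, adjusted p = 8.55e-13) and than ENHC (-1.29 ± 0.19 SE, adjusted p = 1.18e-05), and ENHC were lower than NEC (-2.82 ± 0.19 SE, adjusted p = 4.4e-10). No array of a cell type reached the next type's range within an organ.

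Sfrp5 read 4.98, 4.80 and 4.94 in cochlear HC, 4.57, 4.48 and 4.75 in cochlear ENHC and 4.73, 4.60 and 4.35 in cochlear NEC. Vestibular Sfrp5 read 4.83, 5.29 and 4.33 in HC, 7.40, 8.31 and 7.80 in ENHC and 4.43, 4.89 and 4.69 in NEC. Like Wnt3, Sfrp5 was detected on the 3 vestibular ENHC arrays and on no other. Vestibular ENHC were at least 5.12-fold higher than cochlear ENHC. Pooled over the organs, the same calculation gave 1.93-fold over HC and 1.86-fold over NEC. These pooled folds came from the vestibular arrays alone and do not hold in the cochlea. Cochlear ENHC lay in the background, with a mean of 4.60 against 4.91 in cochlear HC and 4.56 in cochlear NEC.

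Dkk2 was detected on all 6 ENHC arrays (from 5.49 to 7.70) and on no HC or NEC array. It was at least 2.31-fold lower in HC than in ENHC and at least 2.23-fold higher in ENHC than in NEC. Dkk3, a divergent member of its family, was on all 18 arrays and differed between the cell types in no pooled comparison, its differences lying between the organs instead. HC minus ENHC (-0.41 ± 0.17 SE, adjusted p = 0.0618) passed when cochlear HC replicate 1, vestibular HC replicate 3 or either ENHC replicate 2 was left out, with adjusted p down to 0.0186.

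**Figure D4:**
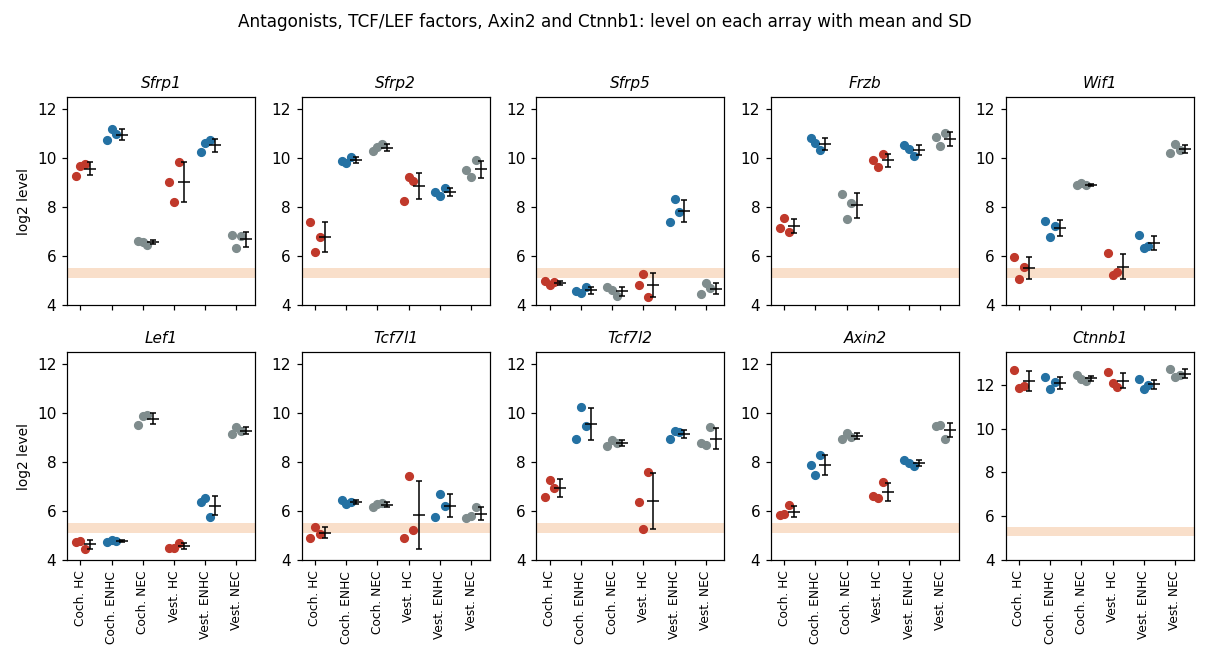
Log2 level of 5 antagonists, 3 TCF/LEF factors, Axin2 and Ctnnb1 on each of the 18 arrays (points; red HC, blue ENHC, grey NEC), with the mean and SD of each group of 3 in black and the band of 5.10 to 5.52 as the lowest levels of a detected probe. Axin2 rose from HC to ENHC to NEC in both organs, and Ctnnb1 stayed between 11.8 and 12.7 on all arrays.

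The TCF/LEF factors, through which β-catenin acts on DNA, had 3 different patterns. Log2 levels of Lef1 were 4.71, 4.76 and 4.43 in cochlear HC, 4.74, 4.83 and 4.76 in ENHC and 9.53, 9.88 and 9.92 in NEC. In the vestibular organs Lef1 stood at 4.48, 4.48 and 4.70 in HC, 6.37, 6.52 and 5.77 in ENHC and 9.17, 9.42 and 9.27 in NEC. Lef1 was far higher in NEC than elsewhere and was otherwise above detection in vestibular ENHC alone, apart from 1 vestibular HC array on which a probe of it was detected. The probe used was above background on no HC array, and NEC were at least 19.2-fold higher than HC. ENHC lay below NEC (-4.03 ± 0.14 SE, adjusted p = 5.56e-14), with the probe above background on 3 of 6 ENHC arrays. Vestibular ENHC were at least 1.67-fold higher than cochlear ENHC.

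Tcf7l2 read 6.56, 7.29 and 6.95 in cochlear HC, 8.94, 10.24 and 9.49 in cochlear ENHC and 8.66, 8.90 and 8.77 in cochlear NEC. Vestibular Tcf7l2 read 6.37, 5.28 and 7.58 in HC, 8.95, 9.26 and 9.24 in ENHC and 8.77, 8.68 and 9.44 in NEC. Tcf7l2 was lower on every HC array than on any ENHC or NEC array. HC differed from ENHC (-2.68 ± 0.30 SE, adjusted p = 4.52e-07) and from NEC (-2.20 ± 0.30 SE, adjusted p = 3.59e-06), while ENHC minus NEC was 0.48 ± 0.30 SE, adjusted p = 0.247 and passed with the mean of its 5 kept probes (0.63, adjusted p = 0.0102). The 3 vestibular HC arrays spread over more than 2 log2 units, with replicate 2 not above detection.

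Log2 levels of Tcf7l1 were 4.91, 5.37 and 5.07 in cochlear HC, 6.44, 6.28 and 6.36 in ENHC and 6.16, 6.27 and 6.35 in NEC. Vestibular levels of Tcf7l1 were 4.88, 7.43 and 5.21 in HC, 5.77, 6.71 and 6.19 in ENHC and 5.70, 5.80 and 6.18 in NEC. Tcf7l1, mostly a repressor among these factors, was detected on all ENHC and NEC arrays and on 1 of 6 HC arrays. That array, vestibular HC replicate 2, had the highest level of all 18. HC minus ENHC was -0.82 ± 0.31 SE, adjusted p = 0.0355 and -1.21 with an adjusted p of 8.18e-06 without that array. Leaving out any 1 of 9 other HC or ENHC arrays ended the call, with adjusted p up to 0.112.

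To place these factors beside the sequences they could read, the 250 bases upstream of annotated start sites were searched for the word CTTTGAA, the word CTTTGAT, the word CTTTGTA and the word CTTTGTT on both strands, short forms of the TCF/LEF recognition sequence. RefSeq (GRCm38.p6) gave such windows for 35 of the 54 genes, as 43 start sites, and 6 of the 43 (14%) held a match, against 14.8% of 32851 start sites of all genes. The matches lay in Dkk1, Fzd7, Lef1, Tcf7l2, Wnt11 and Wnt5b, of which Dkk1 and Wnt11 were not detected. The 60 bases around the match are shown for the other 4 genes, the genes with both a match and a measured level, with the matched letters in capitals and the gene's strand read 5′ to 3′.
Fzd7, chr1:59481991-59482050, plus strand: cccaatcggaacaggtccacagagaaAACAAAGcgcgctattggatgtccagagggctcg
Lef1, 1 of its 4 start sites, chr3:131156121-131156180, plus strand: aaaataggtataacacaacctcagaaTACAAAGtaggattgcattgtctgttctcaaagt
Tcf7l2, 1 of its 2 start sites, chr19:55895261-55895320, plus strand: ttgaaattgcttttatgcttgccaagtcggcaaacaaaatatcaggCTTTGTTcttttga
Wnt5b, 1 of its 3 start sites, chr6:119449424-119449483, minus strand: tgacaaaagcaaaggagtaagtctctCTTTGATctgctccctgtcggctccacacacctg
The share among the Wnt genes was thus close to that of all start sites. A match is a run of letters only, and binding was not measured here.

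Axin2, a scaffold of the β-catenin destruction complex and itself a widely used target gene of the canonical branch, ordered the 3 cell types in the same way in both organs. Axin2 read 5.82, 5.87 and 6.24 in cochlear HC, 7.87, 7.47 and 8.31 in cochlear ENHC and 8.96, 9.19 and 9.05 in cochlear NEC. Vestibular Axin2 read 6.60, 6.55 and 7.21 in HC, 8.10, 7.97 and 7.82 in ENHC and 9.47, 9.51 and 8.97 in NEC. Every HC array lay below every ENHC array, and every ENHC array below every NEC array. HC were lower than ENHC (-1.54 ± 0.16 SE, adjusted p = 2.99e-07) and than NEC (-2.81 ± 0.16 SE, adjusted p = 3.91e-11), and ENHC were lower than NEC (-1.27 ± 0.16 SE, adjusted p = 4.82e-06). The upstream window of Axin2, given because this gene is the pathway's usual readout, held none of the searched words.
Axin2, chr11:108920099-108920348, plus strand: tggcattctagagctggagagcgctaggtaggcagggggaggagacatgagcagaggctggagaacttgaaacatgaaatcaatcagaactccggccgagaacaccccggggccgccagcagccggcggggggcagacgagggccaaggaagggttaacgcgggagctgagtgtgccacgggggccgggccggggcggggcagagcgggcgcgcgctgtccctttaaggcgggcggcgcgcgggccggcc

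The other feedback genes followed Axin2 in part. Nkd1, which binds Dishevelled, was lower in HC than in NEC (-0.89 ± 0.20 SE, adjusted p = 0.000872) and in ENHC than in NEC (-0.69 ± 0.20 SE, adjusted p = 0.0116), with overlapping arrays, and HC minus ENHC was -0.20 ± 0.20 SE, adjusted p = 0.437. Znrf3, the ubiquitin ligase that removes Frizzled receptors, was higher in ENHC than in HC (HC minus ENHC -0.70 ± 0.13 SE, adjusted p = 0.000178) and than in NEC (0.62 ± 0.13 SE, adjusted p = 0.000908), through the vestibular ENHC arrays (from 7.72 to 7.94), which lay above all 15 others.

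Log2 levels of Ctnnb1 were 12.68, 11.85 and 11.95 in cochlear HC, 12.35, 11.82 and 12.13 in ENHC and 12.44, 12.28 and 12.17 in NEC. In the vestibular organs Ctnnb1 stood at 12.60, 12.10 and 11.90 in HC, 12.26, 11.82 and 11.99 in ENHC and 12.72, 12.35 and 12.47 in NEC. Ctnnb1, which encodes β-catenin, overlapped between the cell types over both organs, although every vestibular NEC array lay above every vestibular ENHC array. The log2 differences were 0.12 between HC and ENHC, -0.22 between HC and NEC and -0.34 between ENHC and NEC, with adjusted p of 0.597, 0.266 and 0.134. With arrays blocked by replicate number ENHC minus NEC passed (adjusted p = 0.0217). Porcn, the acyltransferase that adds the lipid to Wnt ligands, was detected on 11 of 18 arrays between 4.81 and 5.95 and differed in no comparison. At these levels, close to the limit of detection, a difference in Porcn may not have been measurable.

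Fzd10os was detected on all 6 NEC arrays (from 7.17 to 8.39) and on no other array, and was at least 6.07-fold higher in NEC than in HC and at least 5.45-fold higher than in ENHC. Of the 2 probes of the receptor gene on the other strand, Fzd10, 1 had this pattern and 1 did not, as given above.

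The second question was how the organs differed within a cell type. In HC, 7 of the 39 genes differed, all lower in the cochlea, against 14.3% of all genes (6.22% higher in the cochlea, 8.09% lower). Fzd1 and Sfrp1, higher in cochlear HC, passed as well when vestibular HC replicate 3 was left out (adjusted p = 0.00923 and 0.0201). Frzb (-2.68 ± 0.25 SE, adjusted p = 3.98e-07), Sfrp2 (-2.07 ± 0.28 SE, adjusted p = 3.69e-05) and Wnt5a (-1.64 ± 0.21 SE, adjusted p = 2.02e-05) differed with no overlap between the organs, as did Rspo3, given above. Axin2 was also lower in cochlear HC, the 3 arrays lying below the 3 vestibular ones (-0.81 ± 0.23 SE, adjusted p = 0.0237). Wnt7a (-0.79 ± 0.24 SE, adjusted p = 0.0321) and Nkd1 (-0.86 ± 0.28 SE, adjusted p = 0.0494) differed with overlapping arrays. The Axin2 call was lost without cochlear HC replicate 1 or 2 or vestibular HC replicate 3, the Wnt7a call without cochlear or vestibular HC replicate 2 or 3, and the Nkd1 call without any 1 of 13 arrays, with adjusted p up to 0.124, 0.163 and 0.23.

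Some connective tissue transcripts moved with these HC differences. Col1a2 stood at 7.65 in vestibular HC and 4.79 in cochlear HC, and Col3a1 at 6.33 and 4.48, whereas Pou3f4, Twist1, Prrx1 and Tbx18 were detected on no HC array. Of the 10 mesenchyme markers 4 were on all vestibular HC arrays and 2 on all cochlear HC arrays, and 4 of the 10 passed as higher in vestibular and 2 as higher in cochlear HC. Summed levels were 710.2 to 880.7 in vestibular and 962.5 to 1076 in cochlear HC, with Pdgfra, at 7.99 and 9.58, as the brightest marker in both. The part of such cells in the organ difference was not tested.

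In ENHC, 14 of the 39 genes differed between the organs, 7 in each direction, against 11% of all genes (5.47% higher in the cochlea, 5.56% lower). Higher in the vestibular organs were Sfrp5, Wnt3, Rspo3 and Lef1, given above, together with Wnt10b (adjusted p = 0.000593, with cochlear ENHC in the background and no fold above 1 as a bound), Wnt3a (at least 1.07-fold, adjusted p = 0.0333) and Znrf3 (-0.99 ± 0.18 SE, adjusted p = 0.00099). The Wnt3a difference rested on 1 detected array of 6 and was lost without cochlear ENHC replicate 1 or 3 (adjusted p up to 0.122). The Znrf3 call was lost when arrays were scaled to a common median in place of quantile normalization (adjusted p = 0.0871).

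Higher in the cochlea were Wnt7a (1.75 ± 0.24 SE, adjusted p = 4.41e-05), Rspo2, Fzd2, Dkk3 (1.50 ± 0.25 SE, adjusted p = 0.000297), Sfrp2 (1.30 ± 0.28 SE, adjusted p = 0.00419), Dkk2 (1.21 ± 0.28 SE, adjusted p = 0.00595) and Wnt5a (1.12 ± 0.21 SE, adjusted p = 0.00125). In each of these 7 genes the 3 cochlear arrays lay above the 3 vestibular arrays. As the genes were picked by the test on the same arrays, this adds no support to it. Dkk2 no longer passed without cochlear ENHC replicate 3 (adjusted p = 0.0515).

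The ENHC sorts of the organs also differed in other markers. The 6 supporting and prosensory cell markers summed to 1832 to 2683 in cochlear and 1057 to 1470 in vestibular ENHC, but by the test 1 of the 6 differed, higher in the cochlea, and 5 did not. Of the 10 mesenchyme markers 3 were on all cochlear and 6 on all vestibular ENHC arrays (sums 1085 to 1418 and 1218 to 1802). Col1a1, Col3a1 and Tbx18 were on all 3 vestibular ENHC arrays at 7.38, 8.78 and 6.12, Pou3f4 and Twist1 on none. Dcn went the other way, at 9.14 in cochlear and 6.62 in vestibular ENHC. By the test 3 mesenchyme markers were higher in vestibular ENHC, 1 was higher in cochlear ENHC and 6 did not differ. The part of these cells in the organ differences was not tested.

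**Figure D5:**
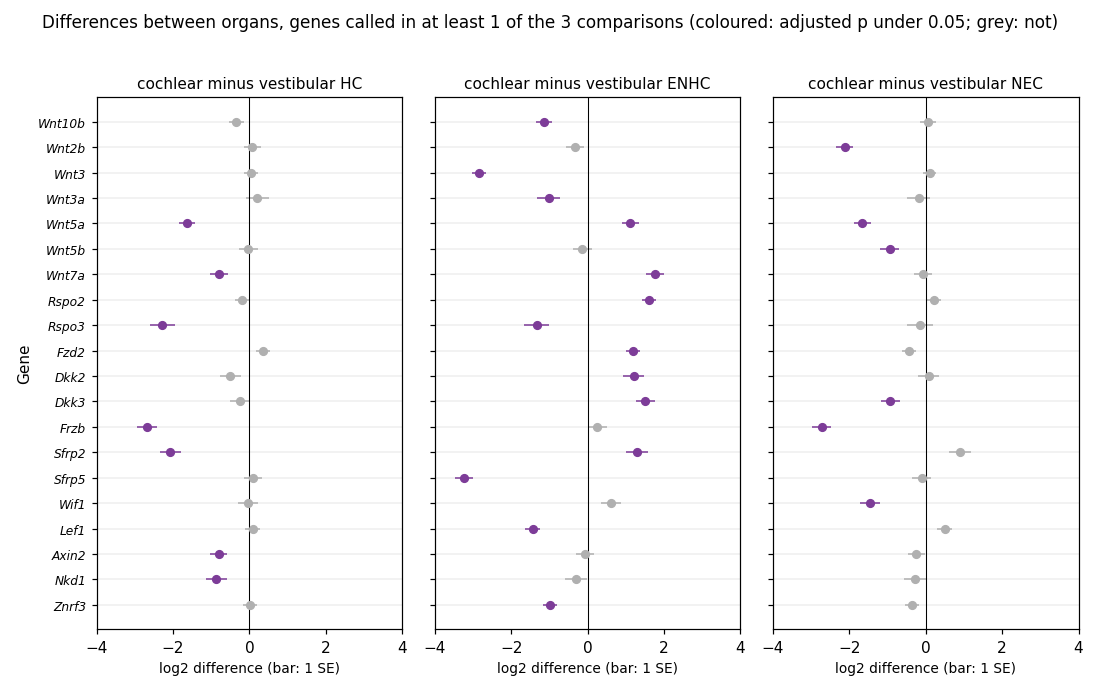
Log2 differences between the organs (cochlear minus vestibular) within HC, ENHC and NEC for the 20 Wnt genes that differed in at least 1 of these comparisons. Points are fitted differences of 3 against 3 arrays, bars are 1 SE, and coloured points have an adjusted p under 0.05. All coloured points of HC and NEC lie left of 0 (with the exceptions under other settings named in the text), and those of ENHC fall on both sides, 7 and 7.

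In NEC, 6 of the 39 genes differed between the organs, all lower in the cochlea, against 6.18% of all genes (2.86% higher in the cochlea, 3.32% lower). Sfrp2 and Lef1 pointed the other way and passed without background correction (adjusted p = 0.0248 and 0.0273), so that the split was then 2 higher and 5 lower. With background correction Sfrp2 stood at 0.89 ± 0.28 SE, adjusted p = 0.0808 and Lef1 at 0.49 ± 0.20 SE, adjusted p = 0.19. Frzb and Wnt2b are given above, and Wnt5a (-1.66 ± 0.21 SE, adjusted p = 4.75e-05) and Wif1 (-1.46 ± 0.26 SE, adjusted p = 0.00139) also differed with no overlap. Wnt5b (-0.95 ± 0.25 SE, adjusted p = 0.0252) and Dkk3 (-0.93 ± 0.25 SE, adjusted p = 0.0275) were each lost without cochlear NEC replicate 2 or 3 or vestibular NEC replicate 1 or 2, with adjusted p up to 0.158 and 0.142. Fzd6 (-0.60 ± 0.20 SE, adjusted p = 0.106) passed with arrays blocked by replicate number (adjusted p = 0.0265). The mesenchyme markers summed to 10660 to 11500 in cochlear and 14620 to 15420 in vestibular NEC, the endothelium markers to 1065 to 1825 and 2278 to 2886, the erythroid markers to 554.5 to 806.5 and 938.4 to 1843, and the neuron markers to 539.4 to 1217 and 108.1 to 111.3. Their part in these differences was not tested.

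Whether a step between cell types differed between the organs was tested directly. The step from ENHC to HC differed in 13 of the 39 genes (4 with a positive and 9 with a negative value, cochlea minus vestibular organs), against 10.8% of all genes (4.52% positive, 6.31% negative). The step from NEC to ENHC differed in 12 (8 positive, 4 negative), against 7.92% (3.84% positive, 4.08% negative). The 2 tests share the ENHC arrays. For Wnt3 and Sfrp5 both restate the detection in vestibular ENHC alone. For Dkk3, cochlear ENHC lay above cochlear NEC on every array (from 9.95 to 10.65 against from 8.85 to 9.41), while vestibular ENHC lay below vestibular NEC on every array (from 8.53 to 9.13 against from 9.84 to 10.21). The log2 difference between these steps was 2.43 ± 0.35 SE, adjusted p = 0.000116. For Dkk2 it was 1.13 ± 0.39 SE, adjusted p = 0.0953 and passed with the block (adjusted p = 0.0138).

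The rest of the pathway was read through 97 further genes in 5 lists, of which 77 were tested. HC differed from ENHC in 33 of them, 10 higher and 23 lower (42.9%, against 47.3% of all genes), HC from NEC in 42, 16 higher and 26 lower (54.5% against 57.5%), and ENHC from NEC in 24, 9 higher and 15 lower (31.2% against 32.5%). In the destruction complex list, which holds Apc, Gsk3b, the casein kinases and Dishevelled, 9 of 28 genes differed between HC and ENHC, and in the nuclear list of co-activators and co-repressors 9 of 20. Of the 8 genes for secretion and extracellular control, 6 were lower in HC than in ENHC and 1 higher (25.1% and 22.2% of all genes). Of 14 receptor-level genes, 5 were lower and 3 higher in HC than in NEC, and 3 lower and 1 higher than in ENHC. Of 11 feedback and target genes, 10 were lower in HC than in NEC (29.3% of all genes), with Lgr5 as the exception. Against ENHC, 6 of these 11 were lower in HC and 1 higher. Lgr5, Rnf43, Apcdd1 and Notum are each also in another of the lists. The probes used for Myc and Rnf43 were detected on no HC array. Among the genes counted as lower, the probe used for Cpz was detected in ENHC alone and that for Notum in cochlear NEC alone. For these genes a difference followed from the way they entered the test.

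The largest differences in these lists were as follows. Sostdc1 (-4.35 ± 0.26 SE, adjusted p = 1.07e-10), an antagonist of BMP and Wnt signals, Apcdd1 (-3.48 ± 0.24 SE, adjusted p = 6.88e-10), an inhibitor at the cell surface, Igfbp4 (-2.81 ± 0.25 SE, adjusted p = 2.77e-08), the co-activator Bcl9l (-2.01 ± 0.27 SE, adjusted p = 6.34e-06) and the Wnt carrier Wls (-1.94 ± 0.20 SE, adjusted p = 1.36e-07) fell furthest from ENHC to HC. Draxin, a secreted guidance protein that binds Lrp6, was detected on all 6 HC arrays and no ENHC array and was at least 5.24-fold higher in HC. Cby1, Tbl1xr1, Cxxc5 and Nlk followed, with log2 differences of 0.74, 0.67, 0.63 and 0.63.

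Against NEC, HC were lowest in Igfbp4 (-5.10 ± 0.25 SE, adjusted p = 3.05e-12), Apcdd1 (-4.79 ± 0.24 SE, adjusted p = 3.49e-12), Adgra2 (-4.33 ± 0.31 SE, adjusted p = 7.59e-10), Sostdc1 (-3.99 ± 0.26 SE, adjusted p = 1.83e-10) and Nkd2 (-3.56 ± 0.26 SE, adjusted p = 1.15e-09), and highest in Draxin (2.92 ± 0.23 SE, adjusted p = 2.13e-09), Kremen1 (1.37 ± 0.23 SE, adjusted p = 5.1e-05), Ruvbl1 (0.998 ± 0.24 SE, adjusted p = 0.0016) and Apc (0.96 ± 0.15 SE, adjusted p = 2.62e-05). The R-spondin receptor Lgr5 was detected on 5 of 6 HC arrays and no NEC array, and was at least 1.89-fold higher in HC. ENHC lay below NEC in Adgra2 (-4.65 ± 0.31 SE, adjusted p = 5.5e-10) and its partner Reck (-1.99 ± 0.18 SE, adjusted p = 3.46e-08), which together serve Wnt7 signalling in brain vessels, and in Nkd2 (-3.26 ± 0.26 SE, adjusted p = 8.53e-09), Igfbp4 (-2.29 ± 0.25 SE, adjusted p = 5.69e-07) and Sp5 (-1.87 ± 0.36 SE, adjusted p = 0.000439). ENHC lay above NEC in Gpc4 (1.53 ± 0.20 SE, adjusted p = 5.23e-06), Kremen1 (1.46 ± 0.23 SE, adjusted p = 4.76e-05) and Apc (0.94 ± 0.15 SE, adjusted p = 5.8e-05), and in Cpz (at least 1.54-fold) and Lgr5 (at least 1.25-fold, 3 of 6 ENHC arrays detected). The endothelium markers summed to 1065 to 2886 in NEC and 166.2 to 286 in ENHC, and their part in the Adgra2 and Reck differences was not tested.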

How the data were processed

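RNA of 18 sorted cell samples (6 groups of 3) was purified on RNeasy columns, pre-amplified with the NuGEN Ovation V2 system, biotin-labelled and hybridised to Illumina mouse BeadChips, and pre-amplification may compress or distort differences of rare transcripts. The authors summarised bead signals in Bead-Studio (version not given in the sources used here) and deposited non-normalized signal intensity and, for each probe on each array, a detection p-value. The authors also deposited quantile-normalized intensities, which lay within 0.289% of quantile-normalized signals computed here and served as an alternative. Gene symbols came from the platform annotation given beside the files, in which 34885 of 45281 probes had 1 symbol, 18 several and 10378 none.

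Signals were corrected with normexp, fitted through the detection p-values (offset 16), quantile-normalized and taken to log2 in limma 3.58.1 under R 4.3.3. The offset makes folds of dim genes smaller than they are. A probe was kept when its detection p-value was below 0.01 on 2 or more arrays, and the kept probe with the highest mean stood for its gene. Of the Wnt genes 16 had several kept probes. Differences varied in size between the probes of some of them, among them Fzd10, Rspo3, Lef1, Rspo2, Lrp6 and Fzd5. No gene had probes called in opposite directions. One mean per group was fitted with lmFit and eBayes, 8 contrasts were tested on all 12002 genes, and p-values were adjusted by Benjamini-Hochberg (threshold 0.05). The methods' two-way analysis of variance was run on the 24352 kept probes as an alternative and called 46 of the 62 Wnt probes, against 59.5% of all probes, and the moderated F test of limma called 47, against 57.3%. The code was tested on simulated data. Folds written as "at least" compare the bright group's mean with the higher, on each array, of the dim probe's own level and the lowest level of any detected probe, for genes, or for the probe used, not above background on any array of the dim group. Arrays of the bright group that did not detect the probe entered at their own level. Where there were such arrays, the fold is no strict bound. Per the study's methods the 3 arrays of a group were biologically independent, and no label links arrays of different groups. Same-numbered arrays deviated together (correlation over 0.1) in every pair among the ENHC and NEC groups (0.174 to 0.448 over 18 pairs). They did so in most but not all pairs among groups with HC, 15 of 18 for HC with ENHC and 14 of 18 for HC with NEC. The fit blocked by number is given beside comparisons of ENHC and NEC where it changes a call, and the calls it adds with HC are listed below. Precision is limited by 3 arrays a group.

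The Wnt genes, the pathway lists and the marker lists were chosen with earlier results of these data known. Every gene of the rule is accounted for. Named with values were the 10 largest differences in each direction between cell types, the 8 largest between organs and in the tests of organ differences, and the 5 largest of the other pathway genes. Values on every array are given for 16 genes, namely those called in most of the 8 contrasts, with Ctnnb1, Axin2, Lef1, Tcf7l1 and Tcf7l2 always included, and genes called in no contrast are given by their range. Alternatives covered the offset, no background correction, median scaling, the deposited values, the detection filter, the mean of probes, a replicate block, array weights and each array left out. Upstream sequences came from RefSeq on GRCm38.p6.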

Additional observations from a re-analysis of the deposited data

Results flagged for a closer look

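For 13 of the 39 Wnt genes the step from ENHC to HC differed between the organs, by the test of that difference in limma (adjusted p from 4.51e-07 to 0.0459). The values below are the log2 difference HC minus ENHC in the cochlea minus the same in the vestibular organs. The step was more negative in the cochlea for Sfrp2 (-3.37), Frzb (-2.94), Wnt5a (-2.76), Wnt7a (-2.55), Rspo2 (-1.81), Dkk3 (-1.76), Dkk2 (-1.70), Lrp5 (-1.34) and Fzd2 (-0.83). For Sfrp2, Wnt7a and Dkk3, 2 of 3 vestibular HC arrays lay above every vestibular ENHC array, whereas all cochlear HC arrays lay below the cochlear ENHC arrays. For Frzb and Wnt5a the vestibular sorts overlapped. Rspo2, Dkk2 and Fzd2 were detected on no HC array. The Fzd2 value was lost without any 1 of 13 arrays (adjusted p up to 0.114) and the Lrp5 value without any 1 of 7 (up to 0.0873).

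The step was more positive in the cochlea for Sfrp5 (3.33), Wnt3 (2.88), Lef1 (1.52) and Znrf3 (1.00), which were all higher in vestibular than in cochlear ENHC. Lef1 no longer passed when the mean of its 3 kept probes stood for the gene (adjusted p = 0.136), and Znrf3 not under median scaling (0.299).

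For 12 genes the step from NEC to ENHC differed (adjusted p from 3.49e-07 to 0.0111), given as the log2 difference ENHC minus NEC in the cochlea minus that in the vestibular organs. It was more negative in the cochlea for Sfrp5 (-3.13), Wnt3 (-2.94), Lef1 (-1.93) and Wnt10b (-1.20). It was more positive for Frzb (2.98), Wnt5a (2.78), Dkk3 (2.435), Wif1 (2.07), Wnt7a (1.82), Wnt2b (1.80), Fzd2 (1.63) and Rspo2 (1.41). Frzb, Wnt5a, Dkk3, Wif1 and Wnt2b were lower in cochlear than in vestibular NEC, while Wnt7a was detected on no NEC array and Rspo2 on 1. The Wnt10b value was lost with an offset of 50 or under median scaling (adjusted p up to 0.0628). The sum of the mesenchyme markers, 10660 to 11500 in cochlear and 14620 to 15420 in vestibular NEC, also differed between the organs, and its part in these values was not tested.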

How the results depend on the processing

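Of the 128 called differences of Wnt genes, 106 passed under each of the 27 alternatives that tested them, 22 were lost under 1 or more, and none was reversed. The counts per comparison stayed within 1.5 times their value under all 27. Leaving out 1 array at a time gave 23 to 26 genes for HC against ENHC, 25 to 26 for HC against NEC, 24 to 27 for ENHC against NEC, 5 to 8, 12 to 14 and 4 to 7 for the organs within HC, ENHC and NEC, and 11 to 13 and 11 to 14 for the tests of organ differences. Of 184 differences not called, 29 passed under at least 1 alternative. Without background correction 70 of the 128 log2 differences shrank by more than 1.5 times, and with an offset of 50, 42 did. Median scaling moved the median log2 difference of all genes from -0.03 to 0.08 for HC minus ENHC, from 0.002 to 0.106 for HC minus NEC, from 0.033 to 0.155 for ENHC between the organs and from -0.028 to -0.146 for the HC minus ENHC step between the organs (cochlea minus vestibular organs).

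With the replicate number as a block, 29, 26 and 28 Wnt genes were called between the cell types, 9, 14 and 7 between the organs in HC, ENHC and NEC, and 14 and 13 in the tests of organ differences. It also called 51 of the 62 Wnt probes in the F test. Among the ENHC and NEC groups the block added calls for Ctnnb1, Fzd7, Fzd6 and Dkk2, given above, and changed no other. Over all groups, arrays of the same number deviated together in 39 of 45 pairs (correlation over 0.1, range -0.03 to 0.50), the 6 others all with vestibular HC, and 17 of 18 arrays lay closest to their own number, a hint from the data that the labels do not state. The block added 8 calls in comparisons with HC and ended none. In HC minus ENHC these were Dkk3, Fzd3, Wnt3a and Wnt9b (limma adjusted p = 0.0322, 0.0214, 0.0156 and 0.015), and in HC minus NEC Rspo1 (0.0459). Between the organs in HC they were Fzd1 and Fzd5 (0.0117 and 0.0378), and for the HC minus ENHC step between the organs Wnt3a (0.0191). The lowest detected level, 5.10 to 5.52 on the log2 scale, limits what could be measured for dim genes such as Porcn, Wnt3a and Wnt10b.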

Other observations

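Other pathway genes also differed between the organs, and the following were picked after their values were seen. In ENHC, Lgr5, the R-spondin receptor known from dividing progenitors of the neonatal cochlea, was detected on all 3 cochlear arrays and no vestibular one and was at least 2.42-fold higher in the cochlea. Cd44, a surface protein also counted among Wnt targets, was higher in cochlear ENHC (log2 difference 2.25 ± 0.27 SE, limma adjusted p = 9.06e-06). Igfbp4 (-2.26 ± 0.35 SE, adjusted p = 0.000194), Apcdd1 (-2.19 ± 0.34 SE, adjusted p = 0.000153) and Cthrc1 (-1.86 ± 0.22 SE, adjusted p = 8.16e-06) were lower there. In NEC, Notum, a secreted enzyme that removes the lipid from Wnt ligands, was detected on the 3 cochlear arrays and no vestibular one and was at least 2.94-fold higher in the cochlea. The probe used was above background on no HC or ENHC array, so this difference followed from the way Notum entered the test. Of the 77 tested pathway genes outside the rule, 9 differed between the organs in ENHC (11.7%, against 11% of all genes) and 3 in NEC (3.9%, against 6.18%).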
